A study of Rattus norvegicus with 5 samples.

Results

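The chemokines, the interleukins and their receptors were followed across 5 laser-captured samples of rat cartilage. Members were all genes with a symbol of the Ccl, Ccr, Cxcl, Cxcr, Cx3c, Xc, Ackr or Il series in the platform annotation, taken from probe sets that carry a single symbol. This gave 96 genes from 122 probe sets, out of 14217 genes with a single symbol and 31042 probe sets in all. A total of 78 members had 1 probe set and 18 had several, which were averaged and are told apart where they differ. The pattern leaves out family genes that carry other names, such as Pf4 and Lif.

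The study compared the zones of the mandibular condylar cartilage (MCC), the cartilage of the jaw joint, with each other and with the femoral condylar cartilage (FCC) of the knee. The groups were the fibrous zone (FZ), which lies at the joint surface, the proliferative zone (PZ) below it, the mature zone (MZ), the hypertrophic zone (HZ) next to the bone, and the FCC, captured from its middle and deep layers. All came from wild type 5-week-old male Sprague-Dawley rats, from frozen sections of 7 µm that were dissected by laser. Per the labels, 30 sections were pooled into each sample, whose RNA passed through 2 cycles of linear amplification before hybridization to an Affymetrix rat genome array. With a single array in each of the groups, the differences below could not be tested and carry no p-value or replicate error.

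Each value is a log2 value relative to the median of its probe set over the 5 arrays, so that 0 marks the array in the middle. The values thus compare arrays and give no level of expression, and they do not show whether a gene was detected. A difference of at least 2 on the log2 scale, which is 4-fold, was counted between single arrays, and a difference of at least 1 between means of zones. In laser-captured tissue, fewer cells of a type and less RNA per cell cannot be told apart.

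Chemokines are small secreted proteins that attract cells by binding G protein-coupled receptors, and the atypical receptors bind the same ligands without that signal and remove or carry them. Interleukins act mostly through receptor chains that recruit JAK kinases and STAT factors, while the interleukin 1 and interleukin 17 families signal through adaptors to NF-kappa B. In growing cartilage these genes are known from the blood-forming cells and osteoclast precursors that meet hypertrophic cartilage at the bone front, and from chondrocytes and stromal cells themselves.

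The promoters of 4 members are shown because these are 2 pairs on which the results turn, the neighbouring chemokines Ccl6 and Ccl9, and the ligand Cxcl12 with its receptor Cxcr4. Each run is the 250 bases before the annotated start, 5′ to 3′ in the direction of the gene, from RefSeq on build GRCr8. Ccl6 lies at chr10:68883367-68883616 and Ccl9 at chr10:68868878-68869127, both on the minus strand. Cxcr4 lies at chr13:42634289-42634538 on the minus strand and Cxcl12 at chr4:152060531-152060780 on the plus strand. Capitals mark matches, on either strand, to TATAAA or to an NF-kappa B site.
Ccl6: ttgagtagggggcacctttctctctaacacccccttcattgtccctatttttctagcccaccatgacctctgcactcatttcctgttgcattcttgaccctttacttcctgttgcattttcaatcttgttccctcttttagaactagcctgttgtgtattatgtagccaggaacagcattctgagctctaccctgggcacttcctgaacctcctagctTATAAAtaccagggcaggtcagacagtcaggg
Ccl9: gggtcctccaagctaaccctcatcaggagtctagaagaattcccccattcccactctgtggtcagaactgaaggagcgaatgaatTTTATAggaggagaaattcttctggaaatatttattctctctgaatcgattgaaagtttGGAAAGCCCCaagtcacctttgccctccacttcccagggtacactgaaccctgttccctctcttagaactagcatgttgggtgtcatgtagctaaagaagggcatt
Cxcr4: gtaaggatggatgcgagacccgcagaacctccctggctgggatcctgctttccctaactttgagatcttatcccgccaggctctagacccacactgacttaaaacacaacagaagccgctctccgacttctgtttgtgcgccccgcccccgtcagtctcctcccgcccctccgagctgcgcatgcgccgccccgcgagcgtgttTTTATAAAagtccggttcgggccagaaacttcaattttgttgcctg
Cxcl12: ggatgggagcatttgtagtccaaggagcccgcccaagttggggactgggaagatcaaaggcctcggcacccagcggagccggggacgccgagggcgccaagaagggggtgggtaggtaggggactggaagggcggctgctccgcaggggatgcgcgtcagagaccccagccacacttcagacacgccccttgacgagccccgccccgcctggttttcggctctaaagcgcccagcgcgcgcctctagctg
The TATAAA match of Ccl6 lay 32 to 27 bases before the start. Ccl9 had a TATAAA match 165 to 160 bases before the start, on the opposite strand, and an NF-kappa B match 106 to 97 bases before it, also on the opposite strand. Cxcr4 had overlapping TATAAA matches on both strands, from 46 to 39 bases before the start, and Cxcl12 had none of the motifs searched. The table entries of Ccl6 and Ccl9, which hold 300 bases each, aligned over 106 positions with 84 identical (79.2%).

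A promoter entry was found for 73 of the 96 members, with 75 promoters in all. Of these 75, 24.0% held TATAAA, against 12.9% of the 33469 promoters in the table, and 18.7% held an NF-kappa B site, against 6.33%. The core of a PU.1 site, GAGGAA, was found in 28.0% against 23.3%, and a STAT site, TTCNNNGAA, in 8.0% against 7.67%. All motifs were searched on both strands, and a match is a run of letters and not a measured binding site.

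Most members differed little between the arrays. The highest and lowest array differed by under 0.5 for 56 of the 96 members (58.3%), against 41.1% of all genes. The median range was 0.44 for members and 0.61 for all genes. A total of 11 members (11.5%) were at least 2 apart between some pair of arrays, against 6.68% of all genes. Without the FCC array 6 were (6.25%, against 3.11%). These 11 were Ccl9, Ccl6, Ccl27 and Ccl2 among the CC chemokines, Cxcl13, the receptor Ccr1, and Il17b, Il9r, Il11ra1, Il2rg and Il16. Cxcl12, Cxcr4 and Cxcl14 passed the same difference in 1 or more probe sets but not in their mean. Ccl27 lay just inside the threshold with a range of 2.06, and Cxcr4 just outside it with 1.97.

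**Figure D1:**
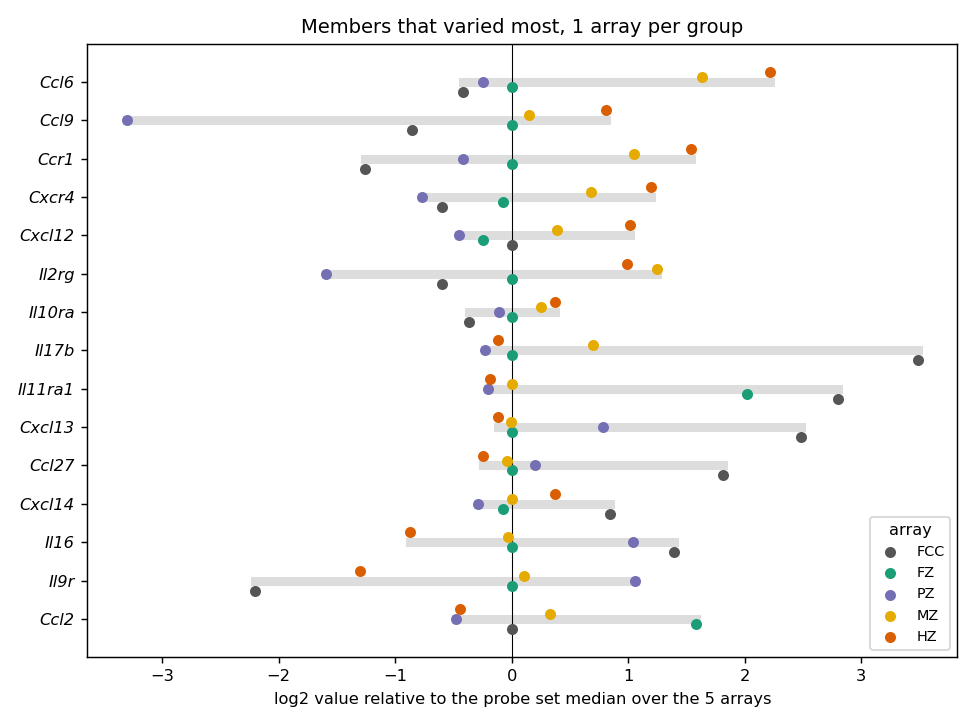
Values of 15 members in the 5 arrays, as the mean of the probe sets of each gene on a log2 scale relative to the median of each probe set, with 1 point per array and a grey bar from the lowest to the highest. In the upper rows the points of MZ and HZ lie to the right, Ccl9 has its PZ point at -3.30, and Il17b, Il11ra1, Cxcl13, Ccl27, Cxcl14 and Il16 have their FCC points farthest right.

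The hypertrophic zone was the array in which members were most often highest. Of the 23 members with a range of at least 1 (24.0%, against 27.2% of all genes), 11 had their highest value in HZ, which is 47.8%, against 26.8% of all genes with such a range. FCC was highest for 7, PZ and MZ for 2 each and FZ for 1. The lowest array was PZ for 9 of the 23, or 39.1%, against 34.7% of all genes with such a range, and FCC for 7.

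Between the superficial zones of the MCC (FZ and PZ averaged) and the deep zones (MZ and HZ averaged), 8 members were at least 1 lower in the superficial zones, which is 8.33%, against 3.78% of all genes. In all 8 both superficial arrays lay under both deep arrays, as in 507 of the 538 genes that passed this difference. They were Ccl9, Ccl6, Il2rg, Ccr1, Cxcr4, Il4r, Il17ra and Cxcl12, 3 ligands and 5 receptor chains. Only 1 member, Il9r, was at least 1 higher in the superficial zones (1.04%, against 2.24% of all genes). Without PZ 5 members were lower in the superficial zones (5.21%, against 2.84% of all genes), without HZ also 5 (5.21%, against 3.6%), and without FZ 9 (9.38%, against 7.93%). The median difference was 0.01 over the 96 members and -0.00 over all genes. A shift to equal hybridization controls, which adds the same amount to every gene, put these medians at -0.16 and -0.17.

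**Figure D2:**
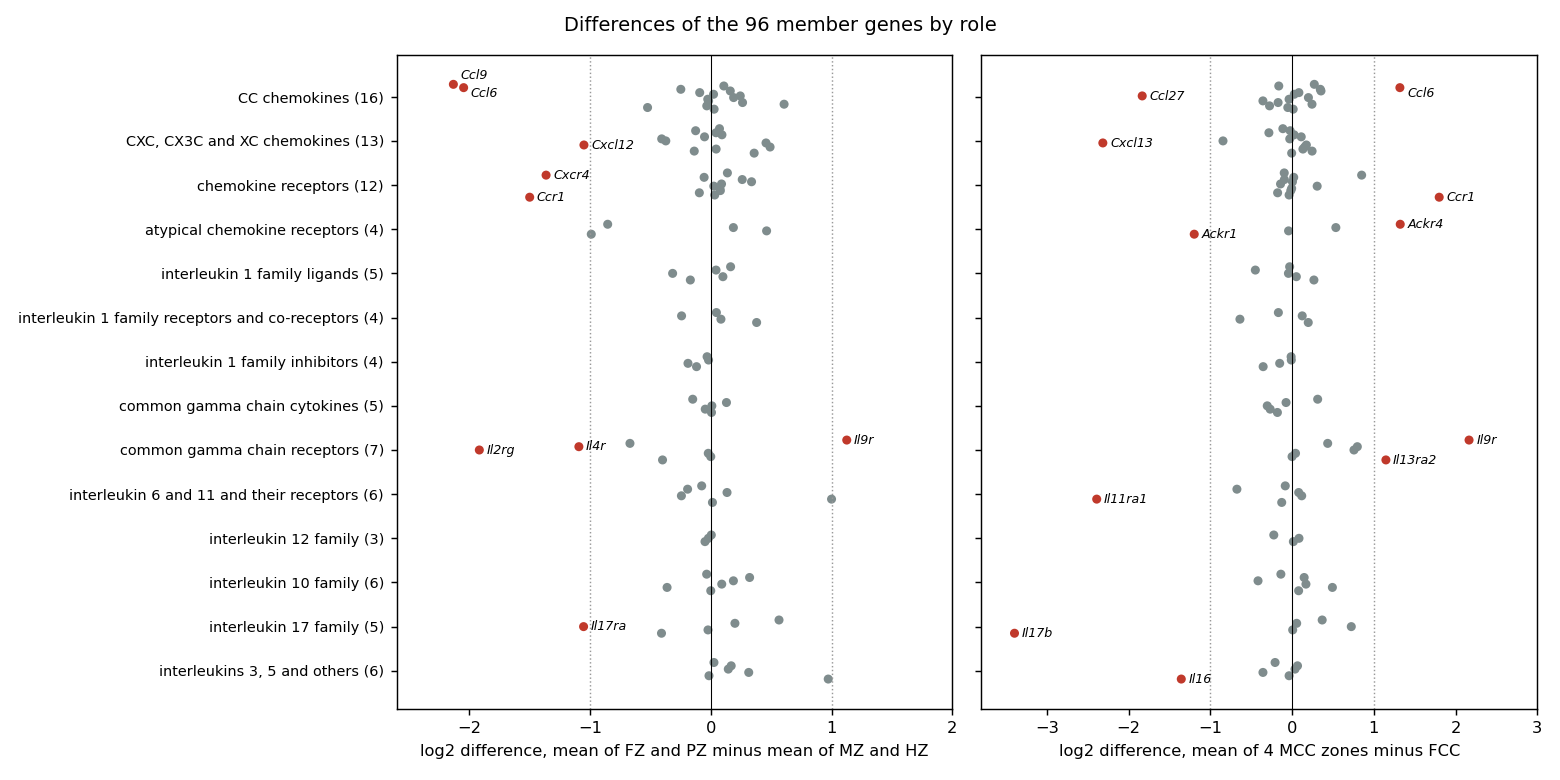
Log2 differences of all 96 members, 1 point per gene, by role with the number of genes in parentheses, for superficial minus deep MCC zones on the left and MCC zones minus FCC on the right, where dotted lines mark -1 and 1. Red points are at least 1 in size, 9 on the left, of which 8 are negative, and 11 on the right, 5 positive and 6 negative.

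The ligands of the deep zones were led by Ccl6 and Ccl9, CC chemokines of rodents that attract myeloid cells through the receptor Ccr1. Ccl6 was 0.00 in FZ, -0.25 in PZ, 1.63 in MZ, 2.21 in HZ and -0.42 in FCC. Both deep zones stood well above the other 3 arrays, by a superficial minus deep difference of -2.05, and Ccl6 ranked 14 from the top of all 14217 genes in HZ and 25 in MZ. Ccl9 was 0.00 in FZ, -3.30 in PZ, 0.15 in MZ, 0.81 in HZ and -0.86 in FCC. Its PZ value was the lowest of all 14217 genes in that array. The superficial minus deep difference of -2.13 rested on that array, since it was -0.48 without PZ, whereas the smallest difference of Ccl6 without any 1 zone was -1.75.

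By pairs of neighbouring MCC zones at a difference of at least 1, FZ was higher than PZ in 4 members (4.17%, against 6.1% of all genes) and lower in 2 (2.08%, against 1.12%). PZ was lower than MZ in 7 (7.29%, against 7.67%) and higher in 1 (1.04%, against 1.97%). These 7 were the deep zone members other than Cxcl12. MZ and HZ differed least, with Il9r 1.41 higher in MZ (1 member, against 0.907% of all genes) and Ccr6, a receptor of lymphocytes and dendritic cells, at -1.13 for MZ minus HZ (1 member, against 0.204%).

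The genes for Ccl6 and Ccl9 are neighbours in a row of CC chemokines that runs Ccl5, Ccl9, Ccl6, Ccl3 and Ccl4. The other members of the row varied little, with ranges of 0.77 for Ccl5, 0.32 for Ccl3 and 0.60 for Ccl4. Ccl3, Ccl4 and Ccl5 attract monocytes and T cells, in part through the same receptor. Their superficial minus deep differences were -0.09, 0.16 and -0.25.

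Ccr1 itself, the receptor of these ligands on monocytes, neutrophils and osteoclast precursors, was 0.00 in FZ, -0.42 in PZ, 1.05 in MZ, 1.53 in HZ and -1.26 in FCC. The order of the arrays was that of Ccl6, with HZ and MZ at the top and FCC at the bottom, and the superficial minus deep difference was -1.499. Leaving out any 1 zone gave differences from -1.74 to -1.25. Ccr3 and Ccr2, the neighbouring receptor genes of eosinophils and monocytes, had ranges of 0.16 and 0.34.

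Cxcl12, a chemokine of stromal cells that holds blood stem cells and B-lineage cells in the marrow, averaged -0.25 in FZ, -0.45 in PZ, 0.38 in MZ, 1.02 in HZ and 0.00 in FCC over its 3 probe sets. HZ was highest and PZ lowest, with a superficial minus deep difference of -1.05. The probe sets did not move alike. By 1369633_at Cxcl12 was -0.41 in FZ, -0.999 in PZ, 0.32 in MZ, 1.56 in HZ and 0.00 in FCC, and by 1388583_at it was -0.28, -0.35, 0.83, 1.48 and 0.00 in the same order. The remaining one, 1387655_at, stayed within a range of 0.07. The SD between the 3 differences was 0.88, the largest of the 18 members with several probe sets, so the mean of Cxcl12 lies between 2 probe sets with differences of -1.64 and -1.47 and 1 with -0.03. Without HZ the mean difference was -0.73.

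Cxcr4, the receptor of Cxcl12 on leukocytes, blood progenitors and vessel cells, averaged -0.08 in FZ, -0.77 in PZ, 0.68 in MZ, 1.19 in HZ and -0.60 in FCC. The deep zones were again highest and PZ lowest, with a difference of -1.36. Of its 3 probe sets, 1373661_a_at and 1389244_x_at gave -1.83 and -1.85, and 1370097_a_at gave -0.41. All 3 were highest in HZ, at 1.396, 1.59 and 0.59. Ackr3, the atypical receptor that also binds Cxcl12, differed from both, being lowest in FCC at -0.47 and highest in FZ at 0.31.

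**Figure D3:**
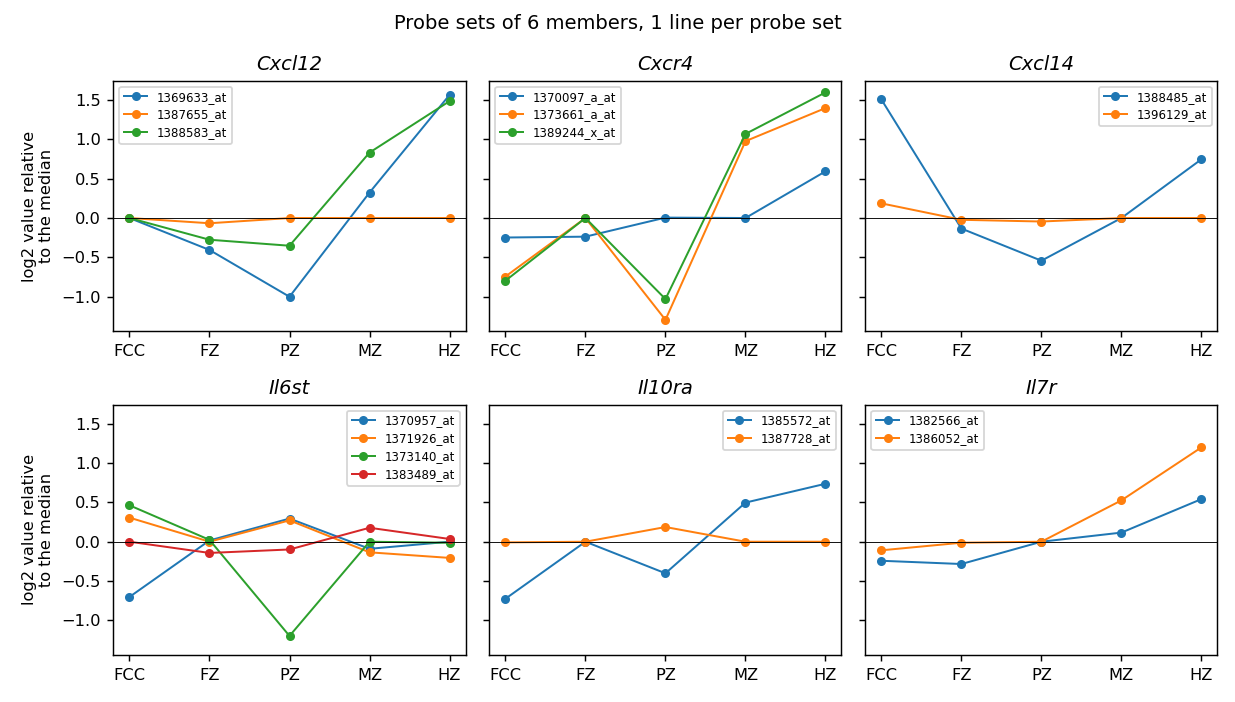
Probe sets of 6 members across the 5 arrays, 1 line per probe set, on a log2 scale relative to the median of each probe set. For Cxcl12 1369633_at and 1388583_at vary and 1387655_at is nearly level, and for Cxcl14 and Il10ra 1 probe set varies and the other is nearly level. For Cxcr4 and Il7r all are highest in HZ, and for Il6st a single probe set falls to -1.20 in PZ.

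Among the interleukin receptors, Il2rg, the common gamma chain that the receptors of interleukins 2, 4, 7, 9, 15 and 21 share on lymphocytes, was 0.00 in FZ, -1.59 in PZ, 1.25 in MZ, 0.99 in HZ and -0.60 in FCC. MZ and HZ were high and PZ low, by a difference of -1.92, which was -1.12 without PZ. Il4r, the chain that binds interleukin 4, had a difference of -1.09 with its highest value, 0.98, in HZ. Il17ra, the chain common to receptors of the interleukin 17 family, had a difference of -1.05 and its highest value, 0.84, in HZ. Without PZ these differences were -0.88 and -0.74, both under 1 in size. Il7r, which lymphocyte precursors need, was highest in HZ at 0.87 by the mean of 2 probe sets, with a difference of -0.67.

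Il10ra, the ligand-binding chain of the interleukin 10 receptor on leukocytes, was 0.00 in FZ, -0.11 in PZ, 0.25 in MZ, 0.37 in HZ and -0.37 in FCC by the mean of 2 probe sets. The order was again that of the deep zones above the others, but only 1385572_at carried it, with a range of 1.46 from -0.72 in FCC to 0.74 in HZ, and 1387728_at had a range of 0.19. Of the measured cytokines of the common gamma chain, interleukin 10 and interleukin 17 groups, Il17b differed most between arrays and is described with the femoral cartilage below. All 5 members of the common gamma chain cytokine group with interleukin 13 (Il2, Il4, Il7, Il13 and Il15) had a range under 0.5 by the mean of their probe sets. Il7, which lymphocyte precursors depend on, had 1 probe set with a range of 0.96, from -0.56 in FCC to 0.40 in HZ, and another with 0.13. Il10 had a range of 0.08 and Il17f one of 0.05.

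Il9r, the receptor chain for interleukin 9 on T cells and mast cells, ran the other way. It was 0.00 in FZ, 1.06 in PZ, 0.11 in MZ, -1.30 in HZ and -2.20 in FCC. PZ was highest and HZ and FCC lowest, so that Il9r and Il2rg, the 2 chains of a single receptor, had differences of opposite sign, 1.13 and -1.92. The difference of Il9r fell under 1 when PZ or HZ was left out, to 0.60 and 0.42, and to 0.96 when the arrays were shifted to equal hybridization controls. Its FCC value ranked 16 from the bottom of all 14217 genes.

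Pan-leukocyte marker genes were lower in the superficial than in the deep zones. Of 16 pan-leukocyte markers, 9 were at least 1 lower in the superficial zones, against 3.78% of all genes. None of these markers was at least 1 higher, against 2.24% of all genes, and their median was -1.19. Their mean was -0.12 in FZ (genes from -1.05 to 0.04), -0.72 in PZ (-2.09 to 0.00), 0.63 in MZ (0.00 to 1.38), 0.99 in HZ (0.00 to 1.51) and -0.88 in FCC (-2.18 to 0.29). The median of the 8 deep zone members was 0.00, -0.54, 0.73, 1.003 and -0.55 in the same order. These 8 were picked by their superficial minus deep difference, so their likeness to the markers across the MCC zones is no independent result. Ptprc, the CD45 antigen of leukocytes, was -0.00 in FZ, -0.39 in PZ, 0.62 in MZ, 0.72 in HZ and -0.70 in FCC, and Cd53 and Fcer1g had differences of -1.96 and -2.12. The part of leukocytes in the values of Ccl6, Ccl9, Ccr1, Cxcr4, Il2rg, Il4r, Il17ra and Cxcl12 was not tested, and the values hold no level by which a marker could be called absent.

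By cell type, the markers of macrophages and monocytes were at least 1 lower in the superficial zones for 5 of 12 genes (median -0.88), those of neutrophils for 4 of 6 (-2.25), those of B lymphocytes for 4 of 5 (-1.56), those of T and NK lymphocytes for 2 of 12 (-0.11) and those of mast cells for 1 of 8 (-0.12). Markers of osteoclasts gave 2 of 5 (-0.82), of endothelium 5 of 11 (-0.98), of megakaryocytes 5 of 8 (-1.81), of red cells 8 of 9 (-1.79) and of osteoblasts and marrow stroma 0 of 6 (-0.22). No gene of these lists was at least 1 higher in the superficial zones. Of all genes, 3.78% were at least 1 lower there and 2.24% at least 1 higher. The neutrophil genes had a mean of -1.28 in PZ, where Ccl9 and Il2rg were also at their lowest. Of the measured neutrophil genes, Mmp8 was at 0.00 in all 5 arrays and Cebpe had a range of 0.08. In FCC every measured neutrophil gene was at 0.00, as were Cxcl12 and every measured red cell gene. The deep zone members Ccl6, Ccl9, Ccr1, Cxcr4, Il2rg, Il4r and Il17ra were all under 0 there. Which cell types gave the values of these members was not tested. Cd68 and Csf1r, the genes of the macrophage and monocyte list with the largest ranges, were -1.52 and -1.44 in FCC and 1.28 and 1.31 in HZ. In the same list Cd14 ran the other way, at 0.78 in FZ and -0.53 in HZ, and C1qb had a range of 0.15.

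**Figure D4:**
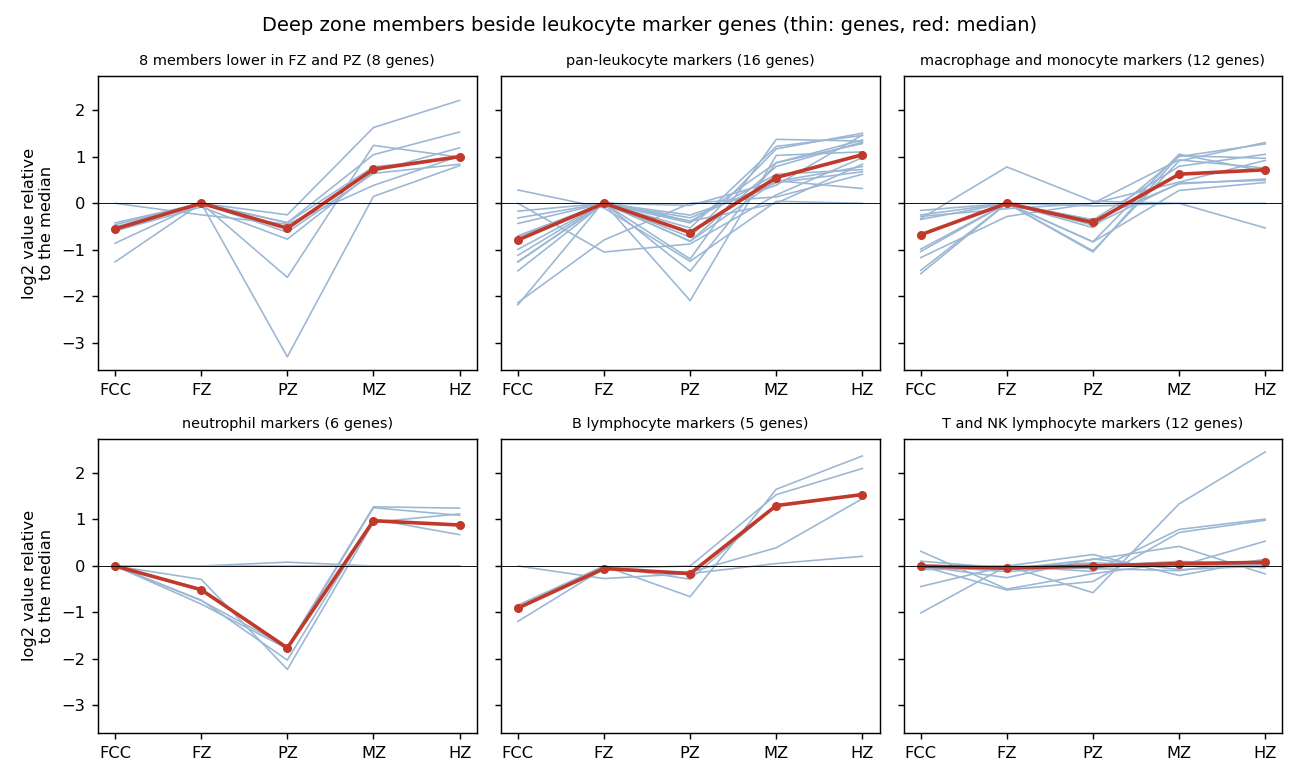
Log2 values relative to the probe set median in the 5 arrays for the 8 members that were at least 1 lower in FZ and PZ and for 5 lists of leukocyte markers, with thin lines for genes and a red line for their median. The members were picked by this difference, which by itself puts their median high in MZ and HZ. The medians of the members, of the pan-leukocyte genes and of the macrophage genes are highest in HZ (1.003, 1.04 and 0.72) and negative in FCC and PZ, the neutrophil median is lowest in PZ (-1.76), and the T and NK lymphocyte median stays near 0.

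Cartilage and fibrous markers were set against the zone labels. Among 13 genes of fibrous connective tissue, 10 exceeded the deep zones by at least 1 in the superficial zones, against 2.24% of all genes. Tnmd was 5.29 in FZ. Of 9 hypertrophy genes 6 were at least 1 lower in the superficial zones, against 3.78% of all genes, and Col10a1 was -2.73 in FZ. Of 17 hyaline cartilage genes 15 were at least 1 lower in the MCC zones than in FCC, against 4.7% of all genes. The hypertrophy genes did not set HZ apart from MZ, with a mean of 0.82 in MZ and 0.68 in HZ. Of the 9, 6 were higher in MZ than in HZ, among them Col10a1 at 0.62 and 0.37 and Ihh at 1.23 and 0.00. Phex went the other way, at 0.59 in MZ and 1.68 in HZ, as did Spp1 (0.97 and 1.13) and Mmp13 (0.33 and 0.37). The list as a set thus did not tell the HZ label from the MZ label. The hybridization control probe sets, spiked at equal amounts, averaged -0.15 in FZ, 0.44 in PZ, -0.02 in MZ, -0.03 in HZ and 0.50 in FCC.

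Between the 4 MCC zones (their mean) and FCC, 5 members were at least 1 higher in the MCC (5.21%, against 5.13% of all genes) and 6 at least 1 lower (6.25%, against 4.7%). Both shares were near those of all genes. Without PZ, however, 10 members were higher in the MCC (10.4%, against 6.42%). The split moved to 9 higher and 4 lower when the arrays were shifted to equal hybridization controls. For all genes the split went from 729 to 1936 higher and from 668 to 373 lower. This shift adds the same amount to the difference of every gene, so its direction is fixed and tells nothing on the members. Without the shift, the median difference was -0.00 for the members and 0.02 for all genes. The members higher in the MCC were Il9r, Ccr1, Ackr4, Ccl6 and Il13ra2, and the lower ones were Il17b, Il11ra1, Cxcl13, Ccl27, Il16 and Ackr1.

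Set against FCC one zone at a time, which uses the same FCC array each time, 11 members were at least 1 higher in HZ (11.5%, against 8.09% of all genes) and 10 in MZ (10.4%, against 6.98%), but 4 in FZ (4.17%, against 5.69%) and 3 in PZ (3.12%, against 4.65%). Those at least 1 lower numbered 5 in HZ (5.21%, against 5.98%), 6 in MZ (6.25%, against 4.74%), 5 in FZ (5.21%, against 4.21%) and 7 in PZ (7.29%, against 7.49%). The 11 of HZ held all 8 deep zone members, together with Ackr4, Il13ra2 and Il7r.

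Il17b, a ligand of the interleukin 17 family, was 0.00 in FZ, -0.23 in PZ, 0.70 in MZ, -0.12 in HZ and 3.48 in FCC. FCC stood far above every MCC zone, the nearest of which was MZ (MZ minus FCC was -2.78), and the difference between MCC and FCC, -3.40, was the most negative of the 96 members. It ranked 51 from the top of all genes in FCC. The other members of its family did not share this pattern. Il17ra was -0.51 and Il17re -0.28 in FCC, and Il17rc and Il17f were 0.00 there.

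Il11ra1, the receptor chain for interleukin 11, a cytokine of bone and stromal cells, was 2.01 in FZ, -0.20 in PZ, 0.00 in MZ, -0.19 in HZ and 2.80 in FCC. FCC and FZ were high and the other 3 arrays lay within 0.20 of each other, a pattern no other of the 11 most variable members had. Its superficial minus deep difference, 0.9997, lay just under 1 and came from FZ. Ccl27, a chemokine of skin that attracts T cells through Ccr10, was 0.00 in FZ, 0.20 in PZ, -0.04 in MZ, -0.25 in HZ and 1.81 in FCC. Only FCC was high. Ccl27 and Il11ra1 overlap in the RefSeq annotation, so the probe sets of the 2 genes may share transcripts, and their FZ values, 0.00 and 2.01, differed. Ccl19 and Ccl21, the next genes of the row and ligands of T cell zones, were 0.26 and 0.30 in FCC with ranges of 0.32 and 0.43.

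Interleukin 11 and interleukin 6 signal through the shared chain gp130, the product of Il6st. Il11 and Il6 had ranges of 0.30 and 0.31. The mean of Il6st had a range of 0.20, but its 4 probe sets did not move alike. In FCC 1370957_at was at -0.70 and 1373140_at at 0.46, and in PZ they were at 0.29 and -1.20. No statement on the direction of Il6st is made. Il6r, the chain for interleukin 6, was highest in FCC at 0.58.

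Cxcl13, the ligand that draws B cells into follicles, was 0.00 in FZ, 0.79 in PZ, -0.01 in MZ, -0.12 in HZ and 2.48 in FCC. FCC was high, PZ came next and the other 3 arrays lay close together. Cxcr5, the receptor of Cxcl13, had a range of 0.29, and Ccr10, the receptor of Ccl27, one of 0.09. Cxcl14, a chemokine of epithelia and fibroblasts, averaged -0.08 in FZ, -0.29 in PZ, 0.00 in MZ, 0.37 in HZ and 0.85 in FCC. The 2 probe sets of Cxcl14 differed, since 1388485_at was 1.505 in FCC and -0.54 in PZ and 1396129_at had a range of 0.23, with an SD of 0.91 between their MCC minus FCC differences.

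Il16, a chemoattractant of CD4+ cells, was 0.00 in FZ, 1.04 in PZ, -0.03 in MZ, -0.87 in HZ and 1.39 in FCC. FCC and PZ were high and HZ low. Il16 and Il9r were thus members with a high PZ value and a low HZ value, but with opposite positions in FCC, 1.39 and -2.20. Il13ra2, a decoy receptor of interleukin 13, was -0.48 in FZ, 0.01 in PZ, 0.33 in MZ, 0.00 in HZ and -1.18 in FCC, so that FCC was lowest.

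The atypical receptors were the role in which no member had a range under 0.5. Ackr1, which binds many chemokines on red cells and venules, was -0.57 in FZ, -0.44 in PZ, 0.00 in MZ, 0.96 in HZ and 1.18 in FCC. Both FCC and HZ were high, and the superficial minus deep difference was -0.99. Ackr4, a scavenger of Ccl19 and Ccl21, was 0.00 in FZ, -0.33 in PZ, 0.62 in MZ, 0.76 in HZ and -1.06 in FCC. Ackr1 and Ackr4 thus both had higher values in the deep than in the superficial zones and opposite signs in FCC. Ackr2, which clears CC chemokines, had a range of 0.53.

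Ccl2, the main attractant of monocytes, was 1.58 in FZ, -0.48 in PZ, 0.33 in MZ, -0.45 in HZ and 0.00 in FCC. FZ alone was high, and Ccl2 ranked 93 from the top of all genes in that array. FZ minus PZ was 2.06 and FZ minus HZ was 2.03. Its neighbours Ccl7 and Ccl11 had ranges of 0.32 and 0.35, and its receptor Ccr2 was -0.24 in FZ.

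The interleukin 1 family, whose ligands are inducers of cartilage breakdown in arthritis, varied little. All 5 ligands (Il1a, Il1b, Il18, Il33 and Il36b) and all 4 inhibitors (Il1rn, Il1r2, Il18bp and Il36rn) had a range under 0.5. Of the receptors and co-receptors, Il1r1, Il1rl1 and Il1rl2 had ranges of 0.48, 0.45 and 0.24, and Il1rap, the shared co-receptor, was highest in FCC at 0.62 with a range of 0.74. A single probe set differed in 3 of these genes. Il1r1 was 1.12 in FZ by 1392946_at, Il33 was 0.92 in FCC by 1373970_at and Il1rl1, the receptor of Il33, was 0.87 in HZ by 1387273_at.

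The remaining families held mostly small ranges. The chemokines that attract neutrophils, Cxcl1, Cxcl2, Cxcl3 and Cxcl6, which lie side by side, had ranges of 0.38, 0.37, 0.18 and 0.43, and their receptors Cxcr1 and Cxcr2 had ranges of 0.67 and 0.52 with PZ highest. The interferon-induced ligands Cxcl9 and Cxcl10 had ranges of 0.19 and 0.18, whereas Cxcl11 was 0.68 in FZ. The interleukin 12 family members Il12a, Il12b and Il23a stayed within 0.26. The type 2 cytokines Il4, Il13 and Il5, which are neighbours, had ranges of 0.42, 0.33 and 0.38. Il34, the second ligand of the macrophage receptor Csf1r, had a range of 0.52.

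A small range does not show that a gene was expressed equally. Of the 122 member probe sets, 49 (40.2%) had exactly the same value, 0, in 2 or more arrays, against 36.4% of all probe sets analysed. In 25 (20.5%) this held for 3 or more arrays, against 13.2%. Il2ra, the interleukin 2 receptor alpha chain, was 0.00 in all 5 arrays. Whether such probe sets were near background cannot be read from these values.

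Of the genes that act beyond the receptors, 2 of 63 in 3 lists were at least 1 lower in the superficial zones, which at 3.17% is near the 3.78% of all genes. Of 17 genes of chemokine receptor signalling, 1 was at least 1 lower in the superficial zones, Rgs18, a regulator of G protein signalling in blood cells, at -1.63. Rac2, a GTPase of blood cells that is also among the pan-leukocyte markers, was 2.13 higher in the MCC than in FCC. Of 21 JAK, STAT and SOCS genes 1 was at least 1 lower, Ptpn6, a phosphatase of blood cells that damps cytokine receptors, at -1.34. Of 25 genes listed for the interleukin 1, interleukin 17 and NF-kappa B routes none passed in either direction between the zones. Among them Slc35b2, at -0.15, stood in for Nfkbie through the matching of symbols. The 25 and the 63 thus hold a gene that was not in the written list. Irak2, an interleukin 1 receptor-associated kinase, was 2.17 in FCC. The medians of the 3 lists were -0.42, -0.12 and -0.13, beside -0.00 for all genes.

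Of 6 chemokine-related genes with other names, Pf4, a platelet chemokine that is also among the megakaryocyte markers, had a superficial minus deep difference of -2.22, and Rarres2, which encodes chemerin, and its receptor gene Cmklr1 had differences of 1.03 and 1.38. Rarres2 was 2.71 in FCC. Of 9 interleukin 6 family genes with other names none passed, with a median of -0.09. Of 29 other cytokines and receptors 2 were lower in the superficial zones, Csf1r and Cd74, at -1.62 and -1.15, of which Csf1r is also among the macrophage markers, and 1 was higher, Tslp, a cytokine of epithelial and stromal cells, at 1.68. Tnfrsf11b, the decoy receptor osteoprotegerin, was 2.82 in FCC, which like Il17b, Cxcl13 and Ccl27 put FCC above every MCC zone.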

How the data were processed

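Expression was measured in 5 laser-captured samples with 1 array each. The study's methods give more pooled sections for FZ than the labels do, and the number of rats behind each pool was not found in the labels. The authors deposited log2 values from RMA, which equalizes the distributions of the arrays, after subtracting from each probe set its median. MAS5 and RMA are listed, with no version, in the submitters' processing notes. Background correction under MAS5 is described in the study's methods, and its filter on the lowest intensities needs levels and was not applied. The build behind the annotation is not given in the sources.

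Of 31099 probe sets 57 are controls. Of the other 31042, the platform annotation gives 1 symbol to 20826, more than 1 to 436 and lists no entry for 9780. Gene values are means of probe sets, and all differences were computed over the 14217 genes with 1 symbol. No member symbol changed when names were updated through RefSeq (GRCr8). Differences were counted at 2 between arrays and at 1 between means of zones, with no test. The SD between the probe sets of a gene stood in for a replicate error. It had a median of 0.29 over the 18 members with several probe sets for superficial minus deep zones and of 0.16 for MCC minus FCC, and it covers neither animals nor amplification. The depth of an array has no count, so the number of arrays limits the precision.

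Values in all 5 arrays were given for members with a range of at least 2 by the mean or by 1 probe set and for Ccl9, Cxcl12, Cxcr4 and Il10ra. Il13ra2, Ackr1 and Ackr4 were added after their values were seen. The members and the gene lists were chosen with earlier results of these data known. Promoters came from the RefSeq table of GRCr8, and motif shares count its 250 bases before each start. The functions were tested on simulated data. Python 3.11.15, numpy 2.4.6, pandas 2.3.3 and matplotlib 3.10.9 were used. Alternatives were other scalings of the arrays, the most variable probe set of a gene, updated symbols, another size threshold and leaving out an array.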

Additional observations from a re-analysis of the deposited data

How the results depend on the processing

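No paired analysis was possible because each group has 1 array. Centring each array on its median and updating symbols could move nothing, since every array median was already 0 and no member symbol changed. The most variable probe set of a gene moved no count by over 1.5 times. Shifting the arrays to equal hybridization controls moved the median of all probe sets by -0.15 for superficial minus deep zones and by 0.45 for MCC minus FCC. The members at least 1 higher in the superficial zones then went from 1 to 0, and all genes from 319 to 234. Those at least 1 higher in the MCC zones went from 5 to 9. The median of MCC minus FCC went from -0.00 to 0.44, beside 0.46 for all genes. Il16 and Ackr1 then no longer passed as lower in the MCC, at -0.92 and -0.76, and the split of higher against lower members went from 5 and 6 to 9 and 4. For all genes the same split went from 729 and 668 to 1936 and 373. With a threshold of 1.4, 18 of the 96 members differed between some pair of arrays, against 2146 of all 14217 genes. In the superficial zones 4 members were lower and 0 higher, against 204 and 171 of all genes. In the MCC zones 2 members were higher and 4 lower, against 305 and 389 of all genes. With 1 zone left out, the members lower in the superficial zones numbered 5 to 9 (5 without PZ and 5 without HZ), those higher there 0 to 3 (2 without FZ, 2 without PZ, 3 without MZ and 0 without HZ) and those higher in the MCC zones 4 to 10 (10 without PZ), and 6 were lower in the MCC zones each time. Of all genes, 2.84% to 7.93% were then lower and 1.8% to 3.05% higher in the superficial zones. In the MCC zones 4.64% to 6.42% were higher and 4.22% to 5.05% lower. Leaving out each array for the count over pairs was chosen after seeing the data and gave 6 to 11 members, 6 without FCC (6.25%, against 3.11% of all genes). Of all genes, 3.11% to 6.34% then passed. Of 30 differences of the 15 named members, the shift by hybridization controls moved 12 by more than the spread between probe sets. That shift adds the same amount to every gene in a comparison. For members with 1 probe set the spread was the median over those with several. The number 12 thus follows from the size of the shift and says nothing on single members. None of the 30 changed sign under that shift or with the most variable probe set. The causes were not tested.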

Other observations

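Probe sets just outside the naming rule were nearly level. The probe set of Ccrl2, an atypical receptor-like gene of leukocytes, was -0.19 in FCC and between -0.00 and 0.00 in the 4 MCC zones. The 2 probe sets that are shared by Il13ra1, a receptor chain for interleukin 13, and its pseudogene Il13ra1-ps1 lay between -0.14 and 0.19 in all 5 arrays.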
